A study of Mus musculus with 8 samples.

Results

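The genes described here are the SR proteins and hnRNP splicing factors of the fetal mouse brain, with the polypyrimidine tract-binding (PTB) proteins and the neural splicing regulators of the Rbfox, Nova and Srrm4 kind. Members are given by gene symbol: every protein-coding gene whose symbol is Srsf followed by a number or begins with Hnrnp, together with Tra2a, Tra2b, Srrm1, Srrm2, Srrm4, Ptbp1, Ptbp2, Ptbp3, Rbfox1, Rbfox2, Rbfox3, Nova1 and Nova2. This gave 44 of the 54752 gene identifiers in the count tables: 11 SR proteins, 4 SR-like proteins (Tra2a, Tra2b, Srrm1 and Srrm2), 20 hnRNP proteins, 3 PTB proteins and 6 neural regulators. A pair of pseudogenes with Hnrnp symbols, Hnrnpa1l2-ps and Hnrnpa1l2-ps2, were not protein coding and were left out. All 44 members were counted well above the filter on low counts, with between 817 and 45812 read pairs per brain.

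RNA-seq was performed on whole brains of wild type C57BL/6 (C57BL/6Slac in the study's methods) mouse fetuses at E15.5. In the stress group the pregnant dam was exposed to chronic unexpected mild stress (CUMS), and control dams were not. Each group held 4 brains, 2 female and 2 male, and one library was made from each brain by poly(A) capture. The control fetuses were females 36 and 37 and males 30 and 31, and the stressed fetuses were females 34 and 35 and males 28 and 29. The 4 control brains were littermates from 1 dam and the 4 stressed brains were littermates from 1 other dam, so that litter and stress cannot be told apart, and every p-value given here measures the spread between littermates. The other brains of the study are not analysed here.

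Splicing removes introns from the primary transcript, and which exons are kept is set largely by proteins that sit on the RNA near the splice sites. SR proteins carry RNA recognition motifs and a tail rich in arginine and serine, and usually promote the inclusion of the exon they bind. hnRNP proteins coat nascent RNA and often, though not always, hinder the use of nearby sites, so that the balance of SR and hnRNP proteins shapes many exon choices. In the developing brain, PTBP1 of the progenitors gives way to its neuronal paralog PTBP2, and RBFOX, NOVA and SRRM4 proteins then direct the exons used in neurons. Many of these genes also limit their own level by splicing in an exon that exposes the transcript to nonsense-mediated decay.

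The promoters of 4 of the changed members are shown, chosen as the hnRNP gene that rose most (Hnrnpd), a highly expressed hnRNP gene that rose (Hnrnpa3), the SR-like gene that fell most (Tra2a) and the one SR gene that fell (Srsf7). Each line holds the 200 bases just upstream of the RefSeq start of the gene, 5′ to 3′ on the gene's strand, from the RefSeq annotation of GRCm38.p6. The windows are chr5:99978939-99979138 (minus strand) for Hnrnpd, chr2:75659059-75659258 (plus strand) for Hnrnpa3, chr6:49264053-49264252 (minus strand) for Tra2a and chr17:80207306-80207505 (minus strand) for Srsf7. Capitals mark matches, on either strand, to 5 motifs: the NF-Y box CCAAT, the GC box GGGCGG, the cAMP response element TGACGTCA, an ETS site CCGGAAG and the TATA box TATAA.
Hnrnpd: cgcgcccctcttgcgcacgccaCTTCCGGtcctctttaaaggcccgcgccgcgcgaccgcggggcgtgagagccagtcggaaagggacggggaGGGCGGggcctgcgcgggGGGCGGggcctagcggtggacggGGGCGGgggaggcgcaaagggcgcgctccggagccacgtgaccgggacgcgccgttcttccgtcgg
Hnrnpa3: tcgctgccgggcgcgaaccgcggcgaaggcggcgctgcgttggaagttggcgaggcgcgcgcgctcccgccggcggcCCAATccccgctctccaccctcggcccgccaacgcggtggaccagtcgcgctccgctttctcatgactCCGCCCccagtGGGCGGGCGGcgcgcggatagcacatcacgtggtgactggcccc
Tra2a: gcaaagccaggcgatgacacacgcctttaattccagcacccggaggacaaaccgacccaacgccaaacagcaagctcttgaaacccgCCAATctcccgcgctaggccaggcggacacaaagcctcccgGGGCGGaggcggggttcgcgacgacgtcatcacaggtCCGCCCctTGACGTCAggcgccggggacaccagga
Srsf7: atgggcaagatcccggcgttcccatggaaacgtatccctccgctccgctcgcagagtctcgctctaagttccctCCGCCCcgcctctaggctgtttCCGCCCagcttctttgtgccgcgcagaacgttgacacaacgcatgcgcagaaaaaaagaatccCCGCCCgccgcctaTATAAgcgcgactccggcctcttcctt
Over the 250 bases upstream of each start, 40 of the 44 members were matched to RefSeq windows. A GC box was found in 29 of the 40 members (72.5%) against 35.4% of 27025 genes, and the NF-Y box in 20 (50% against 37.5%). The cAMP response element was found in Tra2a and in no other matched member (2.5% of members against 1.77% of genes). The ETS site was held by 6 members (15% against 7.83%) and TATAA by 7 (17.5% against 25.8%). These are matches of letters and do not show that a factor binds there. The genes compared were all those with a RefSeq window, with no filter on level or gene type. The members are protein coding and highly counted, so the 2 sets differ in more than splicing. The windows of the members that rose and of those that fell both held GC boxes, with 3 in the Hnrnpd, Hnrnpa3 and Srsf7 stretches and 2 in that of Tra2a.

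Total counts were between 25320109 and 29105710 read pairs per brain, and mitochondrial genes took between 2.095% and 2.31% of them (two-sided p = 0.629 by exact permutation, n = 4 per group). Neuronal, radial glial and cycling-cell markers were all detected in every brain, as the label of a fetal brain calls for. The sample sheet lists the tissue as half_whole_brain, with no further detail. The 44 members together took between 1.67% and 1.71% of the counts of each control brain and between 1.74% and 1.82% of each stressed brain, and these ranges did not overlap.

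Read counts divided by exon length and by the library total (RPKM) placed splicing factors among the most abundant messages of the E15.5 brain. Of the 44 members, 32 stood at or above the 90th percentile of the 17865 genes tested. Hnrnpa1, a nucleocytoplasmic shuttling hnRNP protein that antagonizes SRSF1, was the highest at 403 ± 2.36 RPKM in controls (SD, n = 4). It was followed by Hnrnpa2b1 at 212 ± 4.15 and Hnrnpa0 at 202 ± 2.71 RPKM. The 9 highest members were all hnRNP genes, and Srsf7, at 94.0 ± 1.45 RPKM, was the highest SR gene. Among the neural regulators the order was Rbfox2 (78.8 ± 1.30 RPKM), Rbfox1 (38.3 ± 1.05), Nova1 (31.3 ± 0.628), Srrm4 (17.5 ± 0.279), Nova2 (16.8 ± 0.447) and Rbfox3 (14.3 ± 0.478). Ptbp2 (43.5 ± 0.852 RPKM) exceeded its progenitor paralog Ptbp1 (20.2 ± 0.567), and Ptbp3 was the lowest member at 6.00 ± 0.178. Of the 43 pairs of neighbours in this order, 26 had control brains that did not overlap. Neighbours that overlapped included Hnrnpc and Srsf7, Rbfox2 and Srsf2, and Srrm4 and Nova2. Read pairs on bases shared by exons of more than 1 gene are not assigned by the counter's default, so the level per length of the 7 members with over 10% of such bases is uncertain. These were Srsf4 (43%), Nova2 (31.7%), Hnrnpab (29.1%), Hnrnpf (26.5%), Srsf2 (25.3%), Ptbp1 (20.7%) and Hnrnpm (14.7%). Length was taken over all annotated exons of a gene, so the order of all members also depends on their gene models. Hnrnpr, with 22199 exon bases, stood 41st at 13.6 RPKM in controls.

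**Figure D1:**
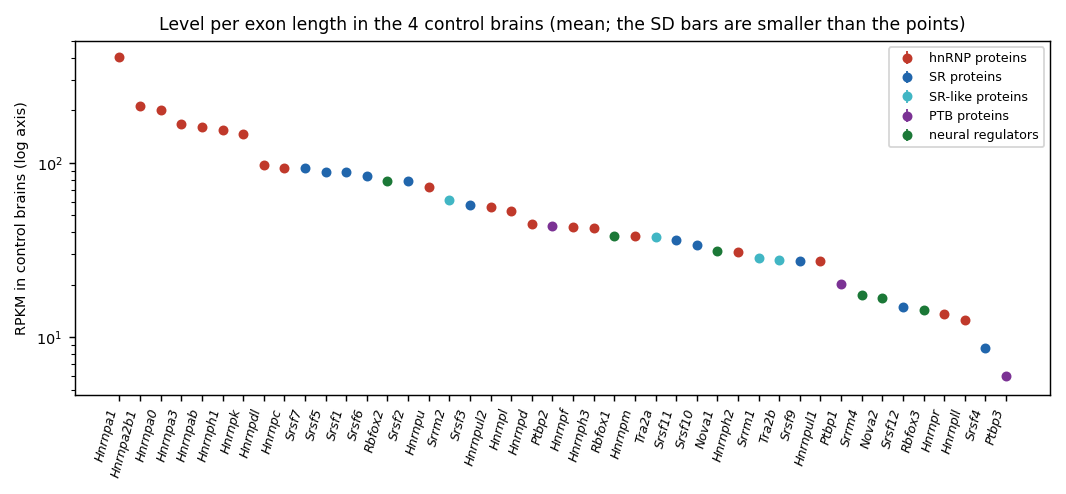
Level of each of the 44 members in the 4 control brains, as mean RPKM on a log axis, ordered from Hnrnpa1 (403) to Ptbp3 (6.00) and coloured by family. The SD bars are smaller than the points, and hnRNP genes fill the first 9 places.

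Prenatal stress was accompanied by small changes in these genes, mostly upward and mostly among the hnRNP genes. Of the 44 members, 12 rose and 4 fell at an adjusted p-value under 0.05 (edgeR quasi-likelihood test with sex in the model, Benjamini-Hochberg adjustment over all 17865 genes), and 28 did not pass. That is 27.3% of members higher and 9.09% lower, beside a background of 6.49% of all tested genes called higher and 7.27% lower (13.8% in either direction). Members are highly counted, and among the 6905 tested genes at or above the lowest member's level the shares were 9.41% higher and 11.2% lower. The largest change of any member was 0.20 on the log2 scale. The median log2 fold change of the members was 0.05 against 0.00 for all genes tested. The groups of 4 did not overlap for 15 members higher in stress and 4 lower, where 8.2% of all genes were apart upward and 8.22% downward. DESeq2 called the same 16 members in the same directions, against 4.19% of all genes higher and 5.1% lower by that tool. In bulk tissue, fewer cells of a type and less RNA per cell cannot be told apart.

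**Figure D2:**
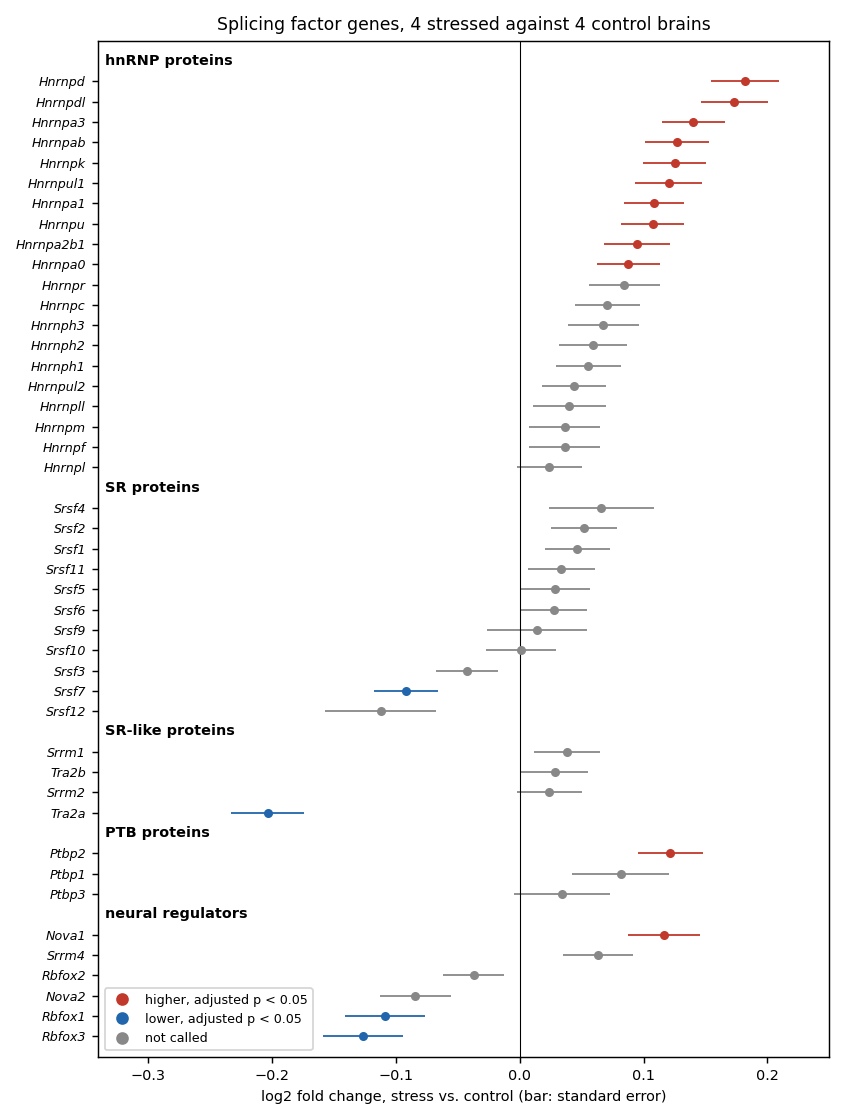
Log2 fold change of each member, stress vs. control, with its standard error, grouped by family (n = 4 brains per group). All 20 hnRNP genes lie above 0 and 10 of them pass the threshold, while SR genes lie on both sides of 0 and Tra2a lies lowest at -0.20.

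Most of the increases were among the hnRNP genes. All 20 had a log2 fold change above 0 (median 0.09), as did 9031 of all 17865 genes tested. Of the 20, 10 rose (50.0%) and none fell. Their summed level was between 10344 and 10598 CPM (the count scaled to the library total) in control brains and between 10983 and 11677 in stressed brains, without overlap. All 20 were also above 0 in females alone (median 0.07) and in males alone (median 0.10). The same held in each fit that left out 1 of the 8 brains. There the median lay between 0.07 and 0.09 and between 8 and 11 genes were called. These fits reused the same littermate brains, so their agreement in sign is not an independent check. Stressed male 29 was the highest of the 4 stressed brains in 17 of the 20 genes and stressed female 34 the lowest in 13. Male 29 also had the most counts and the highest mitochondrial share (2.31%) of the 8 brains. The lowest of the medians, 0.07, was that of the fit without it.

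Hnrnpd (ENSMUSG00000000568.15, mm10 chr5:99955935-99978938) encodes AUF1, which binds AU-rich elements and sets the stability of many messages. In CPM, its level was 323 and 326 in control females 36 and 37, 335 and 337 in control males 30 and 31, 356 and 373 in stressed females 34 and 35, and 371 and 398 in stressed males 28 and 29. Each stressed brain lay above each control. The mean rose from 330.1 ± 7.01 to 375 ± 17.5 CPM (SD, n = 4), a gain of 13.5% (log2 fold change 0.18, SE 0.03, adjusted p = 8.63e-05).

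Its closest paralog Hnrnpdl (ENSMUSG00000029328.15, chr5:100033577-100039664) lies on the same strand 54638 bases away. Hnrnpdl measured 460.4, 475, 471 and 473 CPM in the controls, and 517, 511, 533 and 559 CPM in the stressed brains, in the same order of animals. The 4 stressed brains again stood above all controls, with both males highest. The mean rose by 12.8% (log2 fold change 0.17, SE 0.03, adjusted p = 9.79e-05). Hnrnpd and Hnrnpdl were the only members called higher in females alone and in males alone as well as together. Their calls in males alone were lost without the filter on low counts.

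Hnrnpa3 (ENSMUSG00000059005.13, chr2:75659261-75669407), which encodes an hnRNP A/B protein implicated in RNA trafficking, measured 882, 895, 907 and 914 CPM in the controls. It measured 966, 968, 988 and 1044 CPM in the stressed brains. No stressed brain reached down to the control range, and the mean rose by 10.2% (log2 fold change 0.14, SE 0.03, adjusted p = 0.000515). Hnrnpk (ENSMUSG00000021546.18, chr13:58391142-58403343) encodes a KH-domain protein that binds C-rich RNA and DNA. It measured 924, 956, 970.0 and 958 CPM in the controls and 999.6, 1022, 1049.9 and 1082 CPM in the stressed brains. Its groups did not overlap and the mean rose by 9.09% (log2 fold change 0.13, SE 0.03, adjusted p = 0.00138). Hnrnpab (ENSMUSG00000020358.17, chr11:51600100-51606847), a single-strand binding protein, measured 444, 448, 452 and 444 CPM in the controls and 472, 478, 498 and 505 CPM in the stressed brains. The stressed brains again stood above the controls, males above females, and the mean rose by 9.23% (log2 fold change 0.13, SE 0.03, adjusted p = 0.00144). Its neighbour Phykpl on the other strand covers 29.1% of its exon bases.

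The other hnRNP genes that rose were Hnrnpul1 (log2 fold change 0.12), Hnrnpa1 (0.11), Hnrnpu (0.11), Hnrnpa2b1 (0.09) and Hnrnpa0 (0.09). HNRNPU binds both chromatin and RNA, and HNRNPA2B1 carries messages along neuronal processes. Adjusted p-values of these genes ran from 0.00333 for Hnrnpa1 to 0.0219 for Hnrnpa0, and in each of the 5 all stressed brains stood above all controls. Hnrnpa2b1 was called in 5 and Hnrnpa0 in 4 of the 8 fits that left out 1 brain, and the other hnRNP genes called were called in all 8. Hnrnpa2b1 was lost without control female 36, control male 30 or stressed male 29 (adjusted p up to 0.121), and Hnrnpa0 without control female 37, either control male or stressed male 28 (up to 0.102). Hnrnpr (0.08, adjusted p = 0.0504) lay just beyond the threshold. The 9 further hnRNP genes, which include the G-tract binders Hnrnpf, Hnrnph1, Hnrnph2 and Hnrnph3 and the PTB-like Hnrnpl and Hnrnpll, had log2 fold changes between 0.02 (Hnrnpl) and 0.07 (Hnrnpc) and did not pass the test.

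Among the 11 SR proteins none rose and 1, Srsf7, fell. That is a share near the background, where 7.27% of all genes and 11.2% of those at or above the lowest member's level were lower. The median log2 fold change was 0.03, with 8 above and 3 below 0. Their summed level was 2905 to 2974 CPM in controls and 2878 to 3062 CPM in stressed brains, so that the ranges overlapped. Srsf7 (ENSMUSG00000024097.11, chr17:80200080-80207307) encodes an SR protein with a zinc knuckle that also takes part in mRNA export and in the choice of polyadenylation site. It measured 328, 331, 335 and 340.1 CPM in the controls and 306, 306, 314 and 326 CPM in the stressed brains. All stressed brains lay below all controls, though male 29 came close to control female 36. The mean fell from 334 ± 5.16 to 313 ± 9.52 CPM (SD, n = 4; log2 fold change -0.09, SE 0.03, adjusted p = 0.0171). It was lost without control female 37 (adjusted p = 0.0696), without stressed male 28 (0.0681) and without the sex term (0.0636). Its paralog Srsf3, the smallest SR protein and an export adaptor too, had a log2 fold change of -0.04 (adjusted p = 0.288) with overlapping groups. Srsf12, a brain-expressed SR protein, had the lowest value, -0.11 (SE 0.05, adjusted p = 0.100). The founding member Srsf1 had 0.05 and Srsf2, which acts at exonic enhancers, 0.05, with adjusted p-values of 0.269 and 0.207. The others, Srsf4, Srsf5, Srsf6, Srsf9, Srsf10 and Srsf11, lay between 0.00 and 0.07.

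Tra2a and Tra2b are paralogous SR-like proteins that activate exons with GAA-rich enhancers, and of this pair Tra2a fell. Tra2a (ENSMUSG00000029817.11, chr6:49243924-49264033) measured 267, 254, 260.4 and 262 CPM in the controls and 215, 229, 224 and 238 CPM in the stressed brains. Every stressed brain lay below every control. The mean fell from 261 ± 5.55 to 227 ± 9.46 CPM (SD, n = 4), a change of -13.1% (log2 fold change -0.20, SE 0.03, adjusted p = 4.84e-05). It was the member with the smallest p, 109th of all 17865 genes, and was called in females alone, in males alone and in all 8 fits that left out 1 brain. The call of Tra2a in males alone was lost without the filter on low counts. Tra2b had a log2 fold change of 0.03 (SE 0.03, adjusted p = 0.561) with overlapping groups. The log2 ratio of Tra2a to Tra2b counts within a brain was between -0.05 and 0.08 in controls and between -0.24 and -0.18 in stressed brains, a ratio that was chosen after the values were seen and is given without a test. The spliceosomal coactivators Srrm1 (0.04) and Srrm2 (0.02) did not pass the test.

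**Figure D3:**
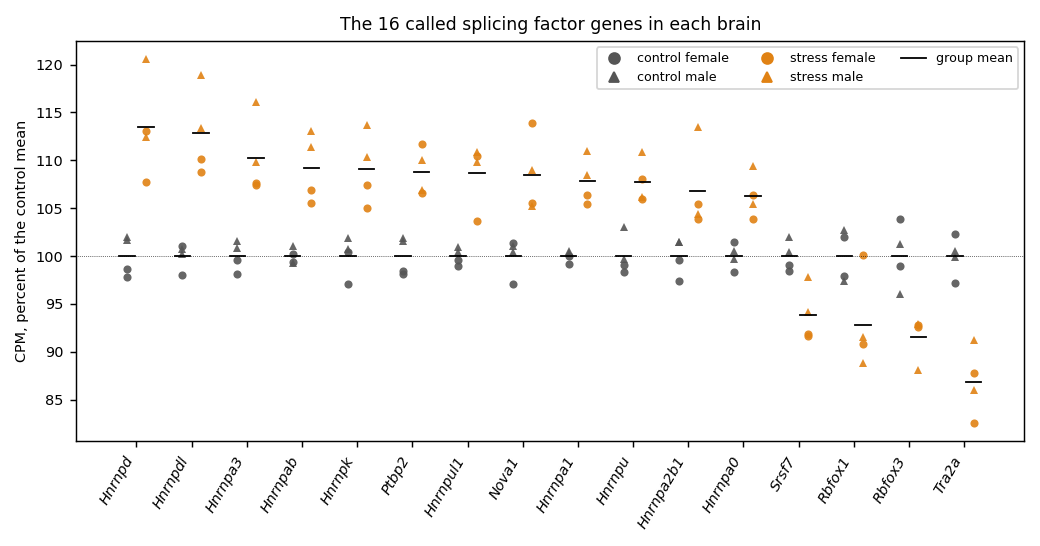
CPM of the 16 called members in each brain as percent of the control mean of that gene (circles females, triangles males, black lines group means). In all but Rbfox1 the 4 stressed brains stand apart from the 4 control brains, and the means run from a gain of 13.5% for Hnrnpd to a change of -13.1% for Tra2a.

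Of the PTB proteins, the neuronal form rose. Ptbp2 (ENSMUSG00000028134.11, chr3:119718742-119784466) measured 391.7, 393, 405 and 406 CPM in the controls and 425, 446, 426 and 439 CPM in the stressed brains. The stressed brains all stood above the controls, and here the highest was a female, 35. The mean rose from 399 ± 7.82 to 434 ± 9.93 CPM (SD, n = 4; log2 fold change 0.12, SE 0.03, adjusted p = 0.00259). Ptbp1 (ENSMUSG00000006498.16, chr10:79854427-79864771), the repressor of neuronal exons in progenitors, measured 96.0, 95.3, 99.2 and 92.7 CPM in the controls and 106, 90.5, 102 and 106 CPM in the stressed brains. Of the stressed brains 3 stood above all controls and female 35 stood below them. The log2 fold change was 0.08 with a larger SE, 0.04, and did not pass the test (adjusted p = 0.178). Without stressed female 35 the log2 fold change of Ptbp1 was 0.13 and passed (adjusted p = 0.00862). Ptbp3 had a log2 fold change of 0.03 (adjusted p = 0.628).

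The neural regulators went both ways, with 1 higher, 2 lower and 3 not called of 6. Of all genes tested, 6.49% were higher and 7.27% lower, and of those at or above the lowest member's level 9.41% and 11.2%. Rbfox3 (ENSMUSG00000025576.17, chr11:118489762-118911597) encodes the NeuN antigen of maturing neurons. It measured 86.6, 82.5, 84.4 and 80.0 CPM in the controls and 77.3, 77.2, 77.4 and 73.4 CPM in the stressed brains. All stressed brains lay below all controls, and the mean changed by -8.42% (log2 fold change -0.13, SE 0.03, adjusted p = 0.0088). Rbfox1 (ENSMUSG00000008658.16, chr16:5885355-7411526), a neuronal and muscle splicing regulator, measured 165, 172, 164 and 173 CPM in the controls and 153, 169, 149.9 and 154 CPM in the stressed brains. Stressed female 35 lay within the control range and the other 3 below it. The mean changed by -7.19% (log2 fold change -0.11, SE 0.03, adjusted p = 0.0254), and the gene was called in 3 of the 8 fits that left out 1 brain. It was lost without control female 37, control male 31, stressed female 34 or either stressed male (adjusted p 0.0588 to 0.107). Rbfox2 (ENSMUSG00000033565.18, chr15:77078990-77307004), the broadly expressed form, measured 647, 651, 627 and 641 CPM in the controls and 624, 636, 629 and 611 CPM in the stressed brains. These groups overlapped (log2 fold change -0.04, SE 0.02, adjusted p = 0.367).

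The paired Nova genes, whose KH-domain proteins bind YCAY clusters in synaptic transcripts, differed in direction. Nova1 (ENSMUSG00000021047.7, chr12:46694517-46818929), the form best known from hindbrain and spinal cord, measured 266, 278, 277 and 275 CPM in the controls and 289, 312, 288 and 298 CPM in the stressed brains. It was higher in all stressed brains, most in female 35, and rose by 8.43% (log2 fold change 0.12, SE 0.03, adjusted p = 0.00763). Nova2 (ENSMUSG00000030411.16, chr7:18925888-18965319), the form best known from neocortex, measured 139, 137, 146 and 141 CPM in the controls and 134, 130.3, 136 and 130.2 CPM in the stressed brains. All stressed brains lay below all controls, but the log2 fold change of -0.08 (SE 0.03) narrowly missed the threshold (adjusted p = 0.0502). Median-of-ratios scaling gave Nova2 an adjusted p of 0.0482, a model without sex 0.0289 and the fit without stressed female 34 0.0396. It was not called by DESeq2 (0.0733), with upper-quartile scaling (0.0505) or without the filter on low counts (0.0517). Of the 8 fits that left out 1 brain only 1 called it, and the adjusted p reached 0.194 without stressed male 29. Srrm4 (ENSMUSG00000063919.11, chr5:116439275-116591817), the activator of neural microexons, measured 149.9, 152, 155 and 151 CPM in the controls and 164, 161, 154 and 156 CPM in the stressed brains. Both stressed females lay above all controls, both stressed males lay among or just above the control values, and the gene did not pass (log2 fold change 0.06, SE 0.03, adjusted p = 0.145).

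Ratios of paralogs within a brain do not depend on library scaling, and 3 were tested by exact two-sided permutation, where the smallest possible p is 0.0286. The log2 ratio of Nova2 to Nova1 went from -0.96 ± 0.04 in controls to -1.16 ± 0.08 in stressed brains (SD, n = 4), a difference of -0.20 (exact permutation p = 0.0286, adjusted over the 3 ratios 0.0429). It was lower in 4 of 4 stressed brains and in both sexes (-0.21 in females, -0.19 in males). The ratio of Rbfox3 to Rbfox2 went from -2.94 ± 0.06 to -3.03 ± 0.02, a difference of -0.09 (exact permutation p = 0.0286, adjusted 0.0429), with -0.09 in each sex. Within both of these pairs, then, every stressed brain lay below every control. The ratio of Ptbp2 to Ptbp1, which rises as progenitors become neurons, was 2.06 ± 0.05 in controls and 2.102 ± 0.13 in stressed brains, a difference of 0.04 (exact permutation p = 0.686, adjusted 0.686), with a difference of 0.11 in females and -0.03 in males. The high stressed value came from female 35 (2.30), and without that brain the difference was -0.02.

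Each sex was also compared alone, with 2 brains against 2. In females 4 members rose (Hnrnpd, Hnrnpdl, Ptbp2 and Nova1) and 1, Tra2a, fell, where 1.64% of genes were higher and 2.27% lower (3.91% in all). In males 7 rose, all of them hnRNP genes, and 3 fell (Tra2a, Rbfox1 and Srsf12), where 3.68% of genes were higher and 4.81% lower (8.49% in all). All 16 members called over both sexes had the same sign in females and in males. These 16 were picked by the fit to the same brains, so their agreement in sign is largely set by that choice. It is not an independent check, and the females and males of a group were also littermates. Under the main settings 3 members, Tra2a, Hnrnpd and Hnrnpdl, were called in each sex alone. Several single-sex calls were lost under other settings. In females DESeq2 called 1 member higher, and none rose without control female 36 or 37. In males none was called in either direction without the filter on low counts, and 3 rose without stressed male 29. The difference between the sexes was tested by the interaction of sex and stress in edgeR, which called none of the 44 members (background 0.0056%). At an unadjusted p under 0.05 there were 2, Srsf12 (0.0044, adjusted 0.526) and Srsf9 (0.0257), and 1 by DESeq2, which called none either. For Srsf12 the log2 fold change was 0.01 in females and -0.23 in males.

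Marker genes of several cell types moved along with the splicing factors. All 6 markers of cycling cells rose, and their summed level was 532.2 to 572.5 CPM in controls and 598.4 to 684.1 CPM in stressed brains. Of 4 markers of intermediate progenitors 3 rose (307.8 to 333.6 against 340.6 to 377.9 CPM), and of 8 markers of radial glia 4 rose and none fell (1529 to 1623 against 1559 to 1686 CPM). The other 4 radial glial markers, Hes1, Hes5, Fabp7 and Slc1a3, had log2 fold changes of -0.08, -0.10, -0.02 and -0.04 and did not pass the test. Of 10 neuronal markers 5 fell and none rose (8065 to 8312 against 7840 to 8219 CPM). Endothelial markers were lower in 4 of 6 (145.9 to 163.3 against 130.2 to 139.1 CPM), and microglial markers in none of 5 (25.58 to 29.12 against 24.57 to 28.14 CPM). Of 7 erythroid markers 2 rose and 1 fell (363.8 to 410.3 against 369.5 to 383.6 CPM). Of 4 choroid plexus markers 1 rose (2.186 to 10.08 against 2.418 to 32.59 CPM), and of 4 tested meningeal and mesenchymal markers 3 rose (12.41 to 25.74 against 17.03 to 59.99 CPM for the 5 listed). DESeq2 called none of the choroid plexus and meningeal markers (adjusted p = 0.412 for Ttr, 0.274 for Col1a1, 0.320 for Col1a2 and 0.158 for Col3a1), and 3 neuronal, 2 endothelial and 3 radial glial markers in the same directions, with the cycling, intermediate progenitor and erythroid counts as above. No marker was at 0 in any brain. The hnRNP rise and the falls of Rbfox3 and Rbfox1 coincided with higher markers of cycling cells and intermediate progenitors. They also coincided with lower levels of some neuronal markers. Ptbp2 and Nova1, likewise neuronal, rose (log2 fold change 0.12 each). The log2 ratio of Ptbp2 to Ptbp1 differed by 0.04 (exact permutation p = 0.686). The part of cell composition in all of these changes was not tested.

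The rest of the splicing machinery was read from 7 lists, beside 6.49% of all genes called higher and 7.27% lower. Among tested genes at or above the lowest member's level these background shares were 9.41% and 11.2%. Of 24 snRNP core proteins, which form the spliceosome itself, 6 rose and none fell. The smallest p-values were those of Prpf31 (log2 fold change 0.17), Snrnp40 (0.14) and Snrnp200 (0.10), and 2 genes rose without control male 30 and 3 without stressed male 29. Of 13 proteins that recognize the branch point and the downstream splice site, 1 rose, Sf3b2 (0.10), a share near that background, and the count was 0 without control male 31 or stressed male 29. Of 21 SR-related proteins beyond the members, 8 rose and none fell, with Rbm39 (0.12), Thrap3 (0.10) and Luc7l2 (0.10) at the smallest p, though between 2 and 6 were called when 1 brain was left out. The proteins with hnRNP-type roles but other names had 3 of 18 higher, Ewsr1 (0.14), Syncrip (0.13) and Rbmx (0.10), and none lower. Of the 8 tested kinases that phosphorylate SR proteins none rose and 1 fell, Clk1 (-0.13), a nuclear kinase that releases SR proteins from speckles. The share that fell was near that of genes at or above the lowest member's level. The other regulators of neural splicing went both ways, with 2 of 20 higher, a share near the background, and 4 lower. The smallest p-values there were those of Khdrbs1 (0.15), which encodes SAM68, of Srrm3 (-0.17), the paralog of Srrm4, and of Khdrbs3 (-0.13), which encodes the neuronal SLM2. Of 15 genes of the exon junction complex and nonsense-mediated decay none rose and 1 fell, the kinase gene Smg1 (-0.09), again a share near the background. The Smg1 call was lost by DESeq2 (adjusted p = 0.0528) and in 5 of the 8 fits that left out 1 brain, those without control female 37, either control male or either stressed male. List medians were between -0.03 (the kinases) and 0.06 (the SR-related proteins), against 0.09 for the hnRNP members and 0.00 for all genes.

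**Figure D4:**
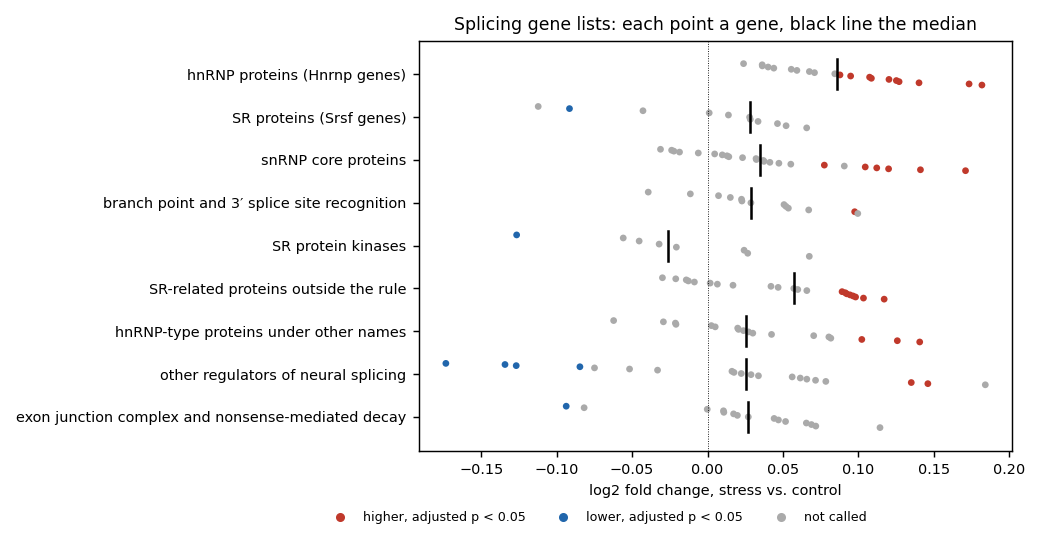
Log2 fold change, stress vs. control, of every tested gene in the hnRNP and SR families and in 7 other splicing lists, with the list median as a black line (red and blue points, called higher and lower). The hnRNP median, 0.09, is to the right of the others, and the kinase median, -0.03, is the one below 0.

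The members more often had annotated decay or retained-intron transcripts, a feature of gene models that the choice by name did not use. In the GENCODE annotation, 27 of the 44 (61.4%) have at least 1 transcript annotated as a target of nonsense-mediated decay, against 27.1% of 14631 tested protein-coding genes, and 32 (72.7%) have one with a retained intron, against 55.7%. Among the named members that changed, Hnrnpd has 4 such decay transcripts, Hnrnpk 3, Hnrnpdl and Ptbp2 2 each, Tra2a and Srsf7 1 each, and Hnrnpa3, Hnrnpab, Nova1, Rbfox1 and Rbfox3 have none. The members and the protein-coding genes compared were not matched for level or for the number of annotated transcripts. The counts per gene sum over all transcripts, so productive and decay forms were not separated here.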

How the data were processed

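The authors trimmed paired reads of poly(A) RNA, aligned them with TopHat2 2.1.1 to the mm10 build and used featureCounts 1.6.3 to count read pairs over GENCODE exons (per the labels and the study's methods). The deposited values are raw counts per gene, with no filter. The stated counting options set nothing for strand, multi-mapping reads or overlapping genes, which leaves featureCounts at its defaults. Symbols came from GENCODE vM21, which matched 54723 of 54752 identifiers. Genes with a minimum count of 10 (filterByExpr) were scaled by TMM and entered the quasi-likelihood test (glmQLFit, glmQLFTest) of edgeR 4.0.16 (limma 3.58.1, R 4.3.3), on condition with sex as a covariate. The threshold for a call was a Benjamini-Hochberg adjusted p under 0.05. The common biological coefficient of variation was 3.14%. CPM and RPKM use TMM-scaled totals. The study's batch term could not be used, since no batch is given for these 8 libraries. No pair of libraries was identical, and brains of 1 group differed by more than counting noise (chi-square per gene 1.97 to 6.35). The fits were tested on simulated data whose changes were larger than that of any member. Recovery of changes as small as those of the members was not tested. Alternatives were DESeq2 1.42.0, other scalings, no filter, no sex term and leaving out each brain.

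Members and lists were chosen with earlier results of these data known. Values in every brain are given for the 6 called members with the smallest p in each direction and for Ptbp1, Ptbp2, Rbfox1, Rbfox2, Rbfox3, Nova1, Nova2 and Srrm4. Of each further list, at most the 3 called genes with the smallest p are named. Protein sequences were not used here.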

Additional observations from a re-analysis of the deposited data

Results flagged for a closer look

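Of 88 groups of 4 brains (44 members, stress and control), 5 (5.68%) held 1 brain that stood apart from the other 3 by Dixon's criterion, which flags about 1 in 20 groups by chance. Stressed male 29 was the far brain in 4 of them. It was highest in Hnrnpa2b1 (1580 CPM), Hnrnpf (142 CPM) and Hnrnph3 (146 CPM), and lowest in Rbfox3 (73.4 CPM). Stressed female 35 was lowest in Hnrnpul1 (245 CPM).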

How the results depend on the processing

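With 4 littermates per group, litter cannot be separated from stress, and overlapping exons limit 7 members. DESeq2 called 748 genes higher (edgeR 1160), 1 member higher in females (4), 1 lower in males (3), 5 SR-related genes higher (8), 2 branch point genes higher (1) and 0 decay genes lower (1). Without the filter on low counts, 0 members were called in males in either direction (7 and 3), though 21 had an unadjusted p under 0.05. Leaving out each brain in turn, which for females, males, the interaction and the further lists was added after seeing the data, gave 10 to 13 members higher, 2 to 5 lower, 736 to 1057 genes higher and 854 to 1308 lower. The low counts were without stressed male 29 for genes, and without control female 37 or stressed male 28 for members lower (2 each). The ranges were 0 to 7 higher and 0 to 2 lower in females, 3 to 9 and 1 to 3 in males, and 0 for the interaction. None rose in females without control female 36 or 37 and 7 without stressed female 34, none fell without control female 36 and 2 without stressed female 35. In males 3 rose without stressed male 29, and 1 fell without control male 31 or stressed male 28. Ratio differences ranged from -0.226 to -0.168 (Nova2 to Nova1), -0.109 to -0.0726 (Rbfox3 to Rbfox2) and -0.0224 to 0.0778 (Ptbp2 to Ptbp1, reversed without stressed female 35). No p-value is given for the ratios with 3 against 4 brains. The further lists had 2 to 6 SR-related, 0 to 2 branch point, 2 to 3 hnRNP-type, 1 to 2 other neural and 2 to 6 snRNP genes higher, and 0 to 1 decay, 2 to 4 other neural and 1 kinase gene lower. The cause of these shifts was not tested. Of the named members, none reversed. No paired analysis was possible because the groups share no replicate number.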
